A study of Mus musculus with 12 samples.

Results

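Bile acid synthesis and transport in mouse liver were followed through 10 genes, of the 19937 gene symbols on the array. The genes were taken by symbol, and each was read from its only probe set annotated to that gene alone, so all 10 were measured and none was lost to a filter. They were 6 enzymes of bile acid synthesis (Cyp7a1, Cyp8b1, Cyp27a1, Cyp7b1, Hsd3b7 and Akr1d1), 2 nuclear receptors that regulate the pathway (Nr1h4 and Nr0b2) and 2 transporters (Slc10a1 and Abcb11). RNA came from the livers of male mice and was hybridised to 12 arrays, 1 per mouse. There were 3 mice in each of 4 groups, namely wild-type (WT) mice from natural mating, WT mice from in vitro fertilization (IVF), Atf7-/- mice from natural mating and Atf7-/- mice from IVF. All were of the C57BL6/JJmsSlc background, and Atf7-/- mice lacked the stress-responsive transcription factor ATF7 in the whole body, from parents of the same genotype. IVF embryos had superovulated mothers, were fertilized in human tubal fluid medium and developed in pseudopregnant ICR recipients, so the IVF groups also differ from natural mating in hormone treatment, embryo culture and the strain of the dam. The sample records give an age of 4 weeks, and the methods of the article state a younger age. Within a group no recipient or naturally mated dam gave more than 1 of the mice, so the replicates are separate animals. For IVF the eggs of several females were pooled, and whether IVF mice share an egg donor or a sire is not stated.

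Bile acids are made from cholesterol in hepatocytes. In the classic route CYP7A1 adds the first hydroxyl group, which is the rate-limiting step, and in the alternative route CYP27A1 and CYP7B1 do the early hydroxylations. HSD3B7 and AKR1D1 then modify the sterol rings in both routes, and CYP8B1 directs the product to cholic acid. Bile acids activate FXR, the product of Nr1h4, which induces the repressor SHP, the product of Nr0b2, and the canalicular export pump BSEP, the product of Abcb11. NTCP, the product of Slc10a1, takes bile acids back from portal blood into the hepatocyte. Synthesis in rodents follows a daily rhythm, and Cyp7b1 is higher in adult male than in female mouse liver.

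Values are log2 expression values from robust multiarray averaging (RMA), on which a difference of 1 is a doubling. The word called is kept for a difference that limma put within an adjusted p of 0.05, by Benjamini and Hochberg over all 34760 probe sets, and whose size on the log2 scale reached 0.6. "Rose" and "fell" are used for called changes alone. IVF in WT and ATF7 loss in natural mating share the WT natural mating arrays, and IVF in Atf7-/- and ATF7 loss in natural mating share those of Atf7-/- natural mating. The comparisons with ATF7 loss in IVF share arrays in the same way, so values are set side by side without a test of overlap. In bulk liver, fewer cells of a type and less RNA per cell cannot be told apart.

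The medians of the arrays ran from 6.22 to 6.34. Those of WT natural mating, at 6.30 to 6.34, were all above those of WT IVF, at 6.22 to 6.27. Atf7, read from probe set 10433032, checked the labels, with -2.82 (SE 0.19, adjusted p = 1.93e-05) for ATF7 loss in natural mating and -2.53 (SE 0.19) in IVF mice. The brighter probe set of Atf7, 10433034, differed by -0.34 in natural mating (SE 0.11, adjusted p = 0.0758), by -0.39 in IVF mice (SE 0.11, adjusted p = 0.721) and was called in neither, and where either lies against the deleted part of the gene was not analysed here. Between the WT groups, 10433032 fell with IVF, from a mean of 8.78 after natural mating to 8.04 after IVF. The mean of 10433034 was 9.02 and 8.76, which was not called. The article reported no difference in Atf7 mRNA between IVF and control livers. Of the hepatocyte markers 7 of 8 were measured, and their summed log2 level lay between 16.15 and 16.29 on all 12 arrays. They are among the brightest probe sets, from Tat (percentile 99.53 of the means) to Alb (percentile 99.99). RMA brings the brightest probe sets to similar values on every array, so this range cannot show that hepatocyte content was constant. limma called 0 of these 7 in each contrast, with 0 to 4 at an unadjusted p under 0.05, and Alb, which encodes albumin, differed between groups by -0.18 to 0.22. WT natural mating replicate 3 stood apart in male-biased liver genes. It was the highest of the 12 arrays for 5 of the 7 that were measured, including Hsd3b5, at 9.72 there against 4.76 and 4.91 in replicates 1 and 2. Calls of the 10 genes that end without this array are named beside the result.

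IVF in WT mice changed 2 of the 10 genes. Hsd3b7 rose and Cyp7a1 fell, where 2.85% of all probe sets were called higher and 1.67% lower. IVF in Atf7-/- mice changed 3 of the 10. Akr1d1 rose and Hsd3b7 and Cyp8b1 fell, where 3.27% of all probe sets were called higher and 3.51% lower. With ATF7 loss in natural mating, 4 of the 10 changed. Hsd3b7 and Cyp8b1 rose and Akr1d1 and Nr1h4 fell, where 3.83% of all probe sets were called higher and 3.67% lower. With ATF7 loss in IVF mice limma called 0 of the 10, of which Cyp7a1 and Cyp8b1 had an unadjusted p under 0.05, and the percentages over all probe sets were 0% higher and 0.00575% lower. The effect of IVF differed between the genotypes for 3 of the 10. This interaction, the IVF effect in Atf7-/- minus that in WT, was positive for Cyp7a1 and Akr1d1 and negative for Hsd3b7, where 2.72% of all probe sets were called positive and 3.46% negative. The median log2 difference over the 10 genes was between -0.24 and 0.10 in the 5 contrasts, and that over all probe sets was between -0.04 and 0.03.

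**Figure D1:**
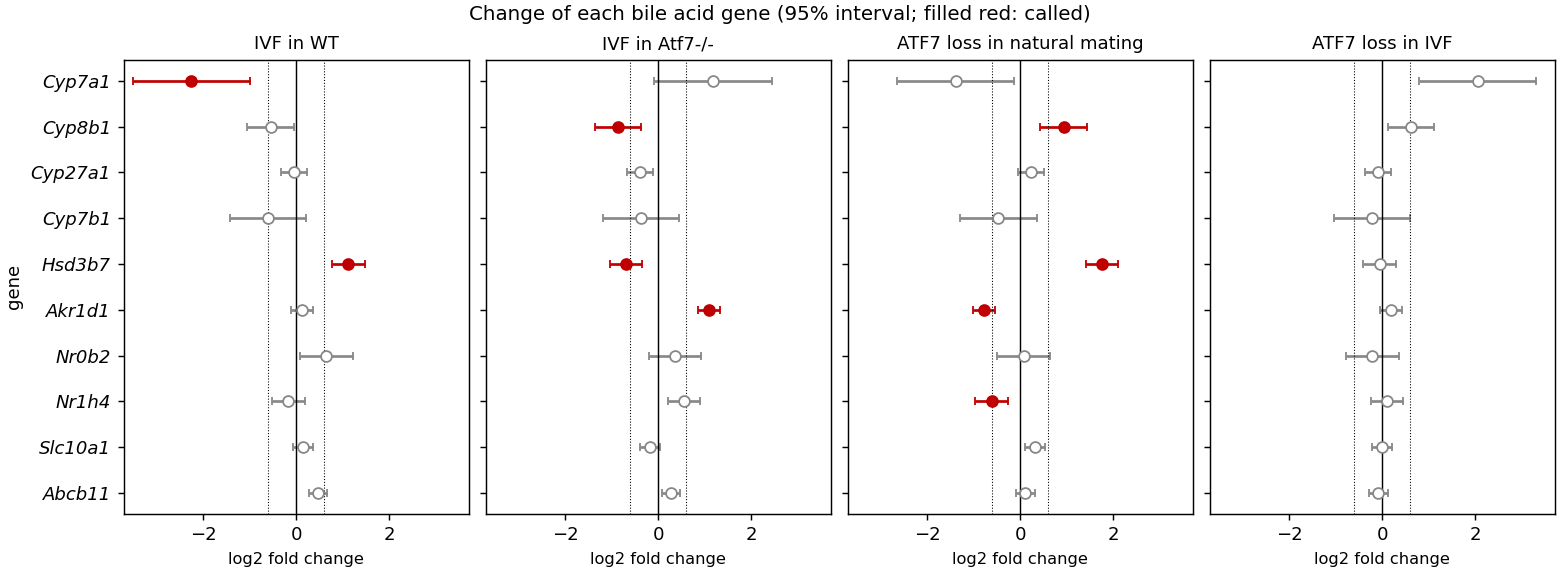
Log2 fold change of each of the 10 genes in 4 comparisons, as a point with its 95% interval. Filled red points are called, open grey points are not, and dotted lines mark the fold minimum of 0.6 in either direction. Hsd3b7 is red in the first 3 panels, with the point left of 0 for IVF in Atf7-/-, and no point is red for ATF7 loss in IVF.

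The 4 genes called with ATF7 loss in natural mating are shown with the 250 bases before their transcription start, because ATF7 belongs to a family of factors that bind the cAMP response element. The sequences are those of RefSeq on GRCm38.p6, written 5′ to 3′ on the gene's own strand. They are Hsd3b7 at chr7:127800359-127800608 (plus strand), Cyp8b1 at chr9:121916306-121916555 (minus), Akr1d1 at chr6:37529923-37530172 (plus) and Nr1h4 at chr10:89506659-89506908 (minus). Capitals mark a match to the nuclear receptor core motif AGGTCA, here on the opposite strand.
Hsd3b7: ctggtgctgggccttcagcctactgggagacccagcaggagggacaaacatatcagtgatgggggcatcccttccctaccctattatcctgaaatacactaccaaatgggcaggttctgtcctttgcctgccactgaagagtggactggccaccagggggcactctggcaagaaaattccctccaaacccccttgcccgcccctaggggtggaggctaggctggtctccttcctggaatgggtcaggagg
Cyp8b1: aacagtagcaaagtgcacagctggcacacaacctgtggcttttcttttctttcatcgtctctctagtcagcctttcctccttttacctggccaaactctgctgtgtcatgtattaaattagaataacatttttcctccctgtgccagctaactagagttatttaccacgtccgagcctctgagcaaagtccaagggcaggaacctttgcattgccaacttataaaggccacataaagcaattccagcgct
Akr1d1: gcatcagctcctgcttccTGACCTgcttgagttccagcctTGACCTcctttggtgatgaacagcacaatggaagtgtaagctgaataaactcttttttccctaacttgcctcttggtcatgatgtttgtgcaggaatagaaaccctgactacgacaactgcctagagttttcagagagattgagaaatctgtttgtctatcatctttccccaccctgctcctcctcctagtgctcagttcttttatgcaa
Nr1h4: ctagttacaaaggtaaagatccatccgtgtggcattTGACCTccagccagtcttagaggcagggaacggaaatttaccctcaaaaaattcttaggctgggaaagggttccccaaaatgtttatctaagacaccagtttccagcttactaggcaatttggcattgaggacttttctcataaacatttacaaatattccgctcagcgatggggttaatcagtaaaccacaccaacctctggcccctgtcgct
Such windows were listed for 8 of the 10 genes, with both starts of Slc10a1. Cyp7a1 and Cyp7b1 were not listed. On both strands, 5 motifs were searched, namely the cAMP response element TGACGTCA, its core TGACG (which lies inside the full element), the E-box CACGTG, the D-box TTATGTAA and AGGTCA. Among 32851 mouse promoters of this length, they occur in 1.55%, 17.8%, 6.02%, 0.819% and 14%, respectively. In the 8 genes the letters TGACGTCA, TGACG and TTATGTAA had no match in these windows. AGGTCA matched in Akr1d1 at 232 to 227 and 210 to 205 bases before the start, in Nr1h4 at 214 to 209, in Abcb11 at 56 to 51 and in Slc10a1 at 87 to 82 before its second start. CACGTG matched in Nr0b2, at 195 to 190 before the start. A match is a run of letters and was not tested as a binding site.

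Hsd3b7, whose product acts directly after the first hydroxylation of the classic route, was called in 4 of the 5 contrasts. It read 9.43, 9.38 and 9.97 after natural mating and 10.73, 10.53 and 10.86 after IVF in WT mice, and 11.51, 11.14 and 11.40 after natural mating and 10.69, 10.60 and 10.70 after IVF in Atf7-/- mice. The lowest arrays were those of WT natural mating and the highest those of Atf7-/- natural mating, with no overlap with any other group, whereas both IVF groups lay between them and overlapped. IVF in WT raised Hsd3b7 2.17-fold, by 1.12 on the log2 scale (SE 0.16, adjusted p = 0.00333). ATF7 loss in natural mating raised it 3.38-fold, by 1.76 (SE 0.16, adjusted p = 0.000103). In Atf7-/- mice IVF had the opposite direction, with -0.69 (SE 0.16, adjusted p = 0.0167). The 2 IVF effects differed by -1.80 (SE 0.23, adjusted p = 0.00161). Between WT IVF and Atf7-/- IVF the difference was -0.05, with a 95% interval from -0.40 to 0.30. The fall with IVF in Atf7-/- lost its call without Atf7-/- IVF replicate 2, Atf7-/- natural mating replicate 1 or replicate 3 (adjusted p = 0.0545, 0.0675 and 0.0564), and the other called changes of Hsd3b7 were called under every alternative run at the same thresholds.

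Akr1d1, which encodes the steroid 5-beta-reductase, was low in a single group. The values were 10.83, 10.69 and 10.93 after natural mating and 10.92, 10.99 and 10.93 after IVF in WT mice, and 9.90, 10.13 and 10.12 after natural mating and 11.18, 10.97 and 11.29 after IVF in Atf7-/- mice. The 3 Atf7-/- natural mating arrays lay below the other 9, which overlapped between neighbouring groups. ATF7 loss in natural mating changed Akr1d1 by -0.77 (SE 0.11, adjusted p = 0.00103) on the log2 scale. IVF in Atf7-/- raised it 2.14-fold, by 1.09 (SE 0.11, adjusted p = 0.000253). In WT the IVF difference was 0.13, with a 95% interval from -0.11 to 0.37 and adjusted p = 0.505. The interaction was 0.97 (SE 0.15, adjusted p = 0.00477). These 3 calls were kept whichever array was left out.

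Cyp7a1 had the largest standard error of the 10 genes, and with IVF in WT also the largest difference. It read 11.28, 11.76 and 11.72 after natural mating and 8.60, 10.63 and 8.79 after IVF in WT mice, and 10.40, 9.50 and 10.72 after natural mating and 11.80, 10.29 and 12.08 after IVF in Atf7-/- mice. The WT natural mating arrays were all above those of WT IVF, in which replicate 2 lay above the others, and the Atf7-/- groups overlapped each other, as did the IVF groups. IVF in WT lowered Cyp7a1 4.75-fold (log2 difference -2.25, SE 0.57, adjusted p = 0.0357). In Atf7-/- the difference was 1.18 (SE 0.57, adjusted p = 0.224), with a 95% interval from -0.08 to 2.44. The effects of IVF in the genotypes differed by 3.43 (SE 0.81, adjusted p = 0.0292). With ATF7 loss the values differed by -1.38 (SE 0.57, adjusted p = 0.148) in natural mating and by 2.05 (SE 0.57, adjusted p = 0.688) in IVF mice. Leaving out WT IVF replicate 2 kept the call in WT, and leaving out any other of the 6 arrays ended it (adjusted p 0.0634 to 0.118), as did a fit of the WT groups alone (adjusted p = 0.0623). The interaction lost its call without any 1 of 7 of the 12 arrays (adjusted p 0.0551 to 0.0726). A fit of the 2 natural mating groups alone called the difference with ATF7 loss (adjusted p = 0.0407).

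**Figure D2:**
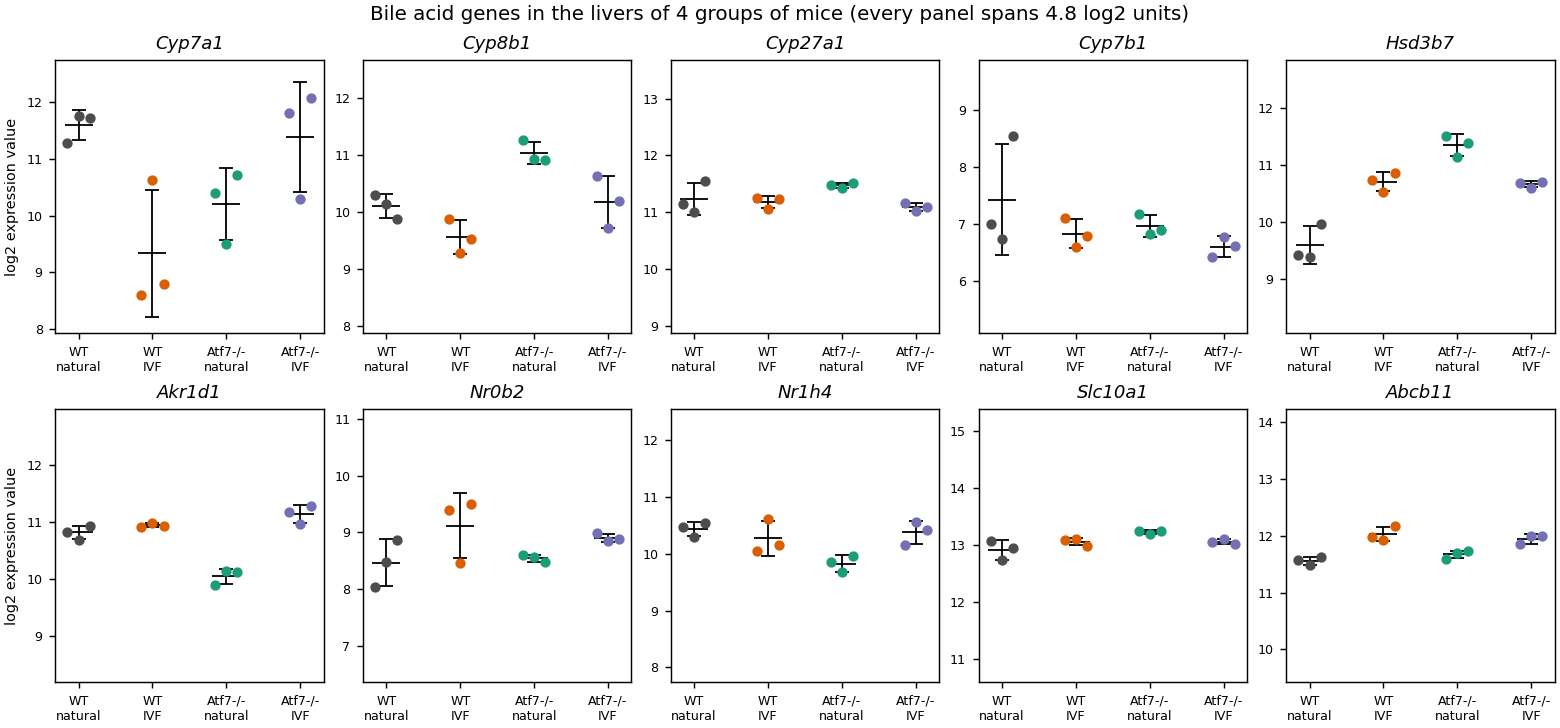
Log2 expression values of the 10 genes, with a point for each of the 12 arrays, a bar at the mean of the 3 arrays of a group and whiskers of 1 SD. Hsd3b7 is lowest in WT natural mating, Akr1d1 is lowest in Atf7-/- natural mating, and the points of Cyp7a1 are the most spread out in WT IVF.

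Cyp7a1 transcription follows the time of day and is activated by the clock output factor DBP, so clock genes were read beside it. Of 12 clock genes, 3 rose and 8 fell with IVF in WT, 2 rose and 5 fell with IVF in Atf7-/-, and 2 rose and 5 fell with ATF7 loss in natural mating, or 91.7%, 58.3% and 58.3% of the list against 4.52%, 6.78% and 7.5% of all probe sets called in either direction. Some of these calls ended without single arrays, among them Cry1 and Nr1d1 with IVF in WT (5 and 4 of 6 arrays) and Arntl with ATF7 loss in natural mating (4 of 6), whereas those of Dbp and of Arntl with IVF did not. Dbp read 10.09, 10.05 and 9.69 after natural mating and 7.47, 7.87 and 7.65 after IVF in WT mice, and 9.57, 9.73 and 8.998 after natural mating and 7.93, 6.57 and 7.92 after IVF in Atf7-/- mice. All 6 IVF arrays thus lay below all 6 natural mating arrays. IVF changed Dbp by -2.28 (SE 0.33, adjusted p = 0.00349) in WT and by -1.96 (SE 0.33, adjusted p = 0.00325) in Atf7-/-, where Cyp7a1 differed by 1.18 and was not called. Arntl, the gene of the clock factor BMAL1, rose with IVF by 2.23 in WT and 1.66 in Atf7-/-. The sources used here do not give the hour at which livers were taken, and its part in the values of Cyp7a1 was not tested.

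**Figure D3:**
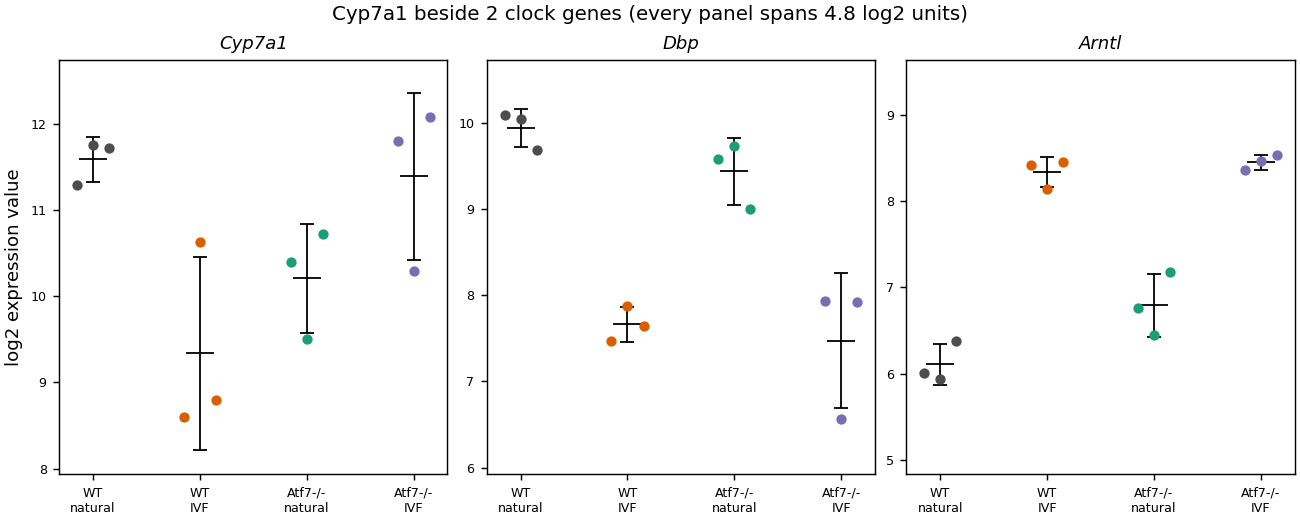
Log2 expression values of Cyp7a1 and of the clock genes Dbp and Arntl in the 4 groups, with a point for each array, a bar at the mean of 3 arrays and whiskers of 1 SD. Dbp is low and Arntl high on all 6 IVF arrays, whereas Cyp7a1 is at 8.60 to 10.63 on the WT IVF arrays and at 10.29 to 12.08 on the Atf7-/- IVF arrays, ranges that overlap.

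Cyp8b1, the sterol 12-alpha-hydroxylase, was highest in Atf7-/- natural mating. The values were 10.30, 10.15 and 9.88 after natural mating and 9.87, 9.28 and 9.53 after IVF in WT mice, and 11.27, 10.94 and 10.91 after natural mating and 10.63, 9.72 and 10.19 after IVF in Atf7-/- mice. The 3 Atf7-/- natural mating arrays lay above the other 9. ATF7 loss in natural mating raised Cyp8b1 1.91-fold, by 0.93 (SE 0.23, adjusted p = 0.0194). IVF in Atf7-/- changed it by -0.86 (SE 0.23, adjusted p = 0.0294), and in WT it differed by -0.55 (SE 0.23, adjusted p = 0.164). The interaction was -0.31, with a 95% interval from -1.02 to 0.39, so the data did not resolve a difference between the IVF effects. The rise was not called without Atf7-/- natural mating replicate 1, WT natural mating replicate 2 or replicate 3 (adjusted p = 0.0757, 0.0506 and 0.0607). The fall stayed called when Atf7-/- IVF replicate 1 was left out and was not called when any other of its 6 arrays was (adjusted p 0.0568 to 0.106), nor in a fit of the Atf7-/- groups alone (adjusted p = 0.0614).

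The enzymes of the alternative route were not called in any contrast. Cyp27a1, the mitochondrial sterol hydroxylase, had group means from 11.09 to 11.48, and its lowest adjusted p was 0.0700, for IVF in Atf7-/- (-0.39, SE 0.13). Cyp7b1, the oxysterol 7-alpha-hydroxylase, read 6.99, 6.74 and 8.55 after natural mating and 7.10, 6.59 and 6.78 after IVF in WT mice, and 7.17, 6.82 and 6.89 after natural mating and 6.41, 6.77 and 6.61 after IVF in Atf7-/- mice. Apart from the value of 8.55, the other 11 arrays lay between 6.41 and 7.17. The high value is from WT natural mating replicate 3, the array that stood apart in male-biased genes. IVF in WT differed in Cyp7b1 by -0.60 (SE 0.37, adjusted p = 0.350) with this array and by -0.04 without it. ATF7 loss in natural mating differed by -0.46 with it and by 0.10 without it. On this array Slco1a1 was at 10.58, Cyp4a12a at 8.93, Cyp2d9 at 10.56 and C6 at 9.03, each its highest value of the 12 arrays, whereas Elovl3 and Selenbp2 were not. The part of the male-biased genes' level in the value of Cyp7b1 was not tested.

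**Figure D4:**
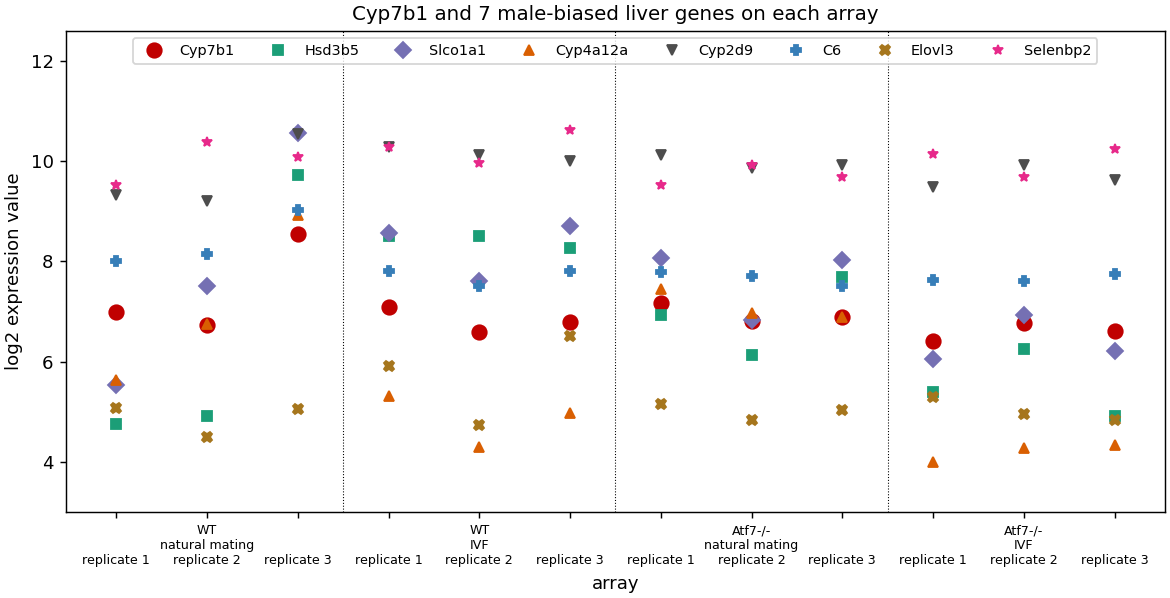
Log2 expression values of Cyp7b1 and of the 7 male-biased liver genes measured, with a marker for each on every array. Cyp7b1, Hsd3b5, Slco1a1, Cyp4a12a, Cyp2d9 and C6 are each highest on the array of WT natural mating replicate 3.

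Nr1h4, the gene of the bile acid receptor FXR, was lowest in Atf7-/- natural mating. It read 10.47, 10.30 and 10.54 after natural mating and 10.04, 10.62 and 10.16 after IVF in WT mice, and 9.85, 9.67 and 9.96 after natural mating and 10.16, 10.56 and 10.42 after IVF in Atf7-/- mice. The Atf7-/- natural mating arrays lay below the other 9, and the other groups overlapped. ATF7 loss in natural mating changed Nr1h4 by -0.61 (SE 0.16, adjusted p = 0.0267), close to the fold minimum of 0.6. IVF in Atf7-/- differed by 0.55 (SE 0.16, adjusted p = 0.0424), under that minimum and so not called. The interaction was 0.72 (SE 0.22, adjusted p = 0.0820). The fall was not called without WT natural mating replicate 1 or 3 or Atf7-/- natural mating replicate 1 or 2 (adjusted p from 0.0680 to 0.0981), nor with array weights (-0.55) or median centring (-0.56), where the difference was under the minimum.

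The FXR targets Nr0b2 and Abcb11 were not called. Nr0b2, whose product SHP represses Cyp7a1 and Cyp8b1, read 8.04, 8.48 and 8.87 after natural mating and 9.40, 8.46 and 9.50 after IVF in WT mice, and 8.60, 8.56 and 8.48 after natural mating and 8.98, 8.85 and 8.89 after IVF in Atf7-/- mice. The WT groups overlapped through WT IVF replicate 2. Within its group this array also had the highest Cyp7a1, the highest Nr1h4 and the lowest Cyp8b1. How these values relate to Nr0b2 was not tested. IVF in WT differed in Nr0b2 by 0.65 (SE 0.26, adjusted p = 0.144), and without that array by 0.98 (adjusted p = 0.0251), which was called. Abcb11, the canalicular bile salt pump, read 11.58, 11.49 and 11.62 with WT natural mating and 11.98, 11.93 and 12.17 with WT IVF. These groups did not overlap, and the difference of 0.47 (SE 0.09, adjusted p = 0.0127) passed the adjusted p and not the fold minimum. In Atf7-/- the IVF difference of Abcb11 was 0.28 (SE 0.09, adjusted p = 0.0725), from 11.60, 11.69 and 11.73 to 11.85, 12.003 and 11.99.

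Slc10a1, the main uptake transporter of conjugated bile acids, varied little. Its group means ran from 12.92 ± 0.17 (SD, n = 3) in WT natural mating to 13.23 ± 0.03 in Atf7-/- natural mating, with both IVF groups at 13.06. With ATF7 loss in natural mating Slc10a1 differed by 0.32 (SE 0.09, adjusted p = 0.0476), past the adjusted p and under the fold minimum. IVF differed by 0.15 in WT (adjusted p = 0.371) and by -0.17 in Atf7-/- (adjusted p = 0.284).

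Other genes of the pathway, in 7 lists with 47 of 48 genes measured, were read in the same fit. With IVF in WT, 2 of the 47 rose and 2 fell, or 8.51% against 4.52% of all probe sets called in either direction. IVF in Atf7-/- raised 2 and lowered 4, or 12.8% against 6.78%. ATF7 loss in natural mating raised 4 and lowered 4, or 17% against 7.5%. These shares are a description of lists chosen with results known. limma called 0 of the 47 with ATF7 loss in IVF mice, with 2 at an unadjusted p under 0.05. The interaction was called for 3, 1 positive and 2 negative, or 6.38% against 6.18% of all probe sets, close to the same share. The medians of the 47 genes were between -0.05 and 0.02 in the 5 contrasts.

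Among 9 genes of side-chain oxidation and conjugation, Baat, which joins bile acids to taurine or glycine, was lowest in Atf7-/- natural mating, as Akr1d1 was. Baat read 10.01, 10.06 and 10.30 after natural mating and 9.93, 9.80 and 10.32 after IVF in WT mice, and 9.56, 9.33 and 9.38 after natural mating and 10.13, 10.16 and 10.43 after IVF in Atf7-/- mice. The Atf7-/- natural mating arrays lay below the other 9. ATF7 loss there changed Baat by -0.70 (SE 0.15, adjusted p = 0.00906), IVF in Atf7-/- by 0.82 (SE 0.15, adjusted p = 0.00442), and the interaction was 0.92 (adjusted p = 0.0229), a call lost without any 1 of 5 of the 12 arrays (adjusted p up to 0.0584). Amacr, a racemase of the side-chain steps, rose with ATF7 loss in natural mating by 0.65 (SE 0.11, adjusted p = 0.00370), and was not called once WT natural mating replicate 3 was left out. Its interaction was -0.64 (adjusted p = 0.0397), called without just 2 of the 12 arrays in turn. Of 5 other sterol hydroxylases, Cyp2c70, the enzyme of muricholic acid formation in mice, rose with IVF in WT by 1.02 (SE 0.17, adjusted p = 0.00680). Its values there went from 11.36, 11.14 and 11.87 to 12.50, 12.44 and 12.49, without overlap. Its rise of 0.61 with ATF7 loss in natural mating (adjusted p = 0.0390) was called without just 1 of the 6 arrays, WT natural mating replicate 3.

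Among other transporters, the uptake carrier gene Slco1a4 rose with IVF in Atf7-/- by 1.33 (SE 0.24, adjusted p = 0.00449), the only call of 5 uptake genes in that contrast. It fell with ATF7 loss in natural mating (log2 difference -0.81, SE 0.24, adjusted p = 0.0458), a call kept in just 1 of the 6 fits without an array, that without WT natural mating replicate 3. Abcc3, an efflux pump of the blood side, fell with IVF in both genotypes, with a log2 difference of -1.17 (SE 0.28, adjusted p = 0.0280) in WT and -1.23 (SE 0.28, adjusted p = 0.0147) in Atf7-/-. The WT call of Abcc3 was kept without just 1 of the 6 arrays, WT natural mating replicate 3, and that in Atf7-/- ended without Atf7-/- natural mating replicate 1 or Atf7-/- IVF replicate 3. Of 7 other genes of canalicular export, Atp8b1, a phospholipid flippase, rose with IVF in WT by 0.82 (SE 0.11, adjusted p = 0.00203). Abcg8, of the sterol exporter, fell with IVF in Atf7-/- (log2 difference -0.71, SE 0.18, adjusted p = 0.0246), a call that ended without any of 4 of the 6 arrays.

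Of 9 transcription factors of bile acid genes that were measured, Hnf4a, an activator of Cyp7a1 and Cyp8b1, was highest in Atf7-/- natural mating, as Cyp8b1 was. Cyp7a1 had a lower mean there than in WT natural mating, 10.21 against 11.59, a difference that was not called. The part of Hnf4a in the values of either gene was not tested. Hnf4a read 11.28, 11.14 and 10.76 after natural mating and 11.10, 10.95 and 11.09 after IVF in WT mice, and 11.74, 11.69 and 11.78 after natural mating and 10.94, 10.99 and 11.02 after IVF in Atf7-/- mice. The Atf7-/- natural mating arrays were above the other 9. ATF7 loss there raised Hnf4a by 0.68 (SE 0.12, adjusted p = 0.00390), which was not called without WT natural mating replicate 3, and IVF in Atf7-/- changed it by -0.76 (SE 0.12, adjusted p = 0.00252). The interaction of Hnf4a was -0.74 (adjusted p = 0.0260), a call lost without any 1 of 7 of the 12 arrays. Mafg, a repressor of bile acid synthesis genes, fell with ATF7 loss in natural mating (log2 difference -0.76, SE 0.10, adjusted p = 0.000731), and the coactivator gene Ppargc1a rose by 0.76 (SE 0.15, adjusted p = 0.00731). The other probe set of Ppargc1a differed by 0.20 (SE 0.29, adjusted p = 0.730) and was not called. Nr1h3, which encodes the oxysterol receptor LXR alpha, fell with IVF in Atf7-/- (log2 difference -0.69, SE 0.09, adjusted p = 0.00116). Among 8 receptor and FGF15 axis genes, Nr1i3, which encodes the xenobiotic receptor CAR, fell with IVF in WT (log2 difference -0.88, SE 0.24, adjusted p = 0.0445) and with ATF7 loss in natural mating (log2 difference -0.95, SE 0.24, adjusted p = 0.0228). The former call ended without any of its 6 arrays, and the latter without WT natural mating replicate 1 or Atf7-/- natural mating replicate 2. Other settings also ended calls of these lists. A fit of only the groups compared ended those of Cyp2c70, Slco1a4 and Nr1i3 with ATF7 loss in natural mating and of Abcc3 with IVF in WT. Array weights and a further quantile normalization each ended both calls of Amacr, quantile normalization also ended that of Cyp2c70 with ATF7 loss, and median centring ended those of Slco1a4 with ATF7 loss and of Nr1i3 with IVF in WT.

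**Figure D5:**
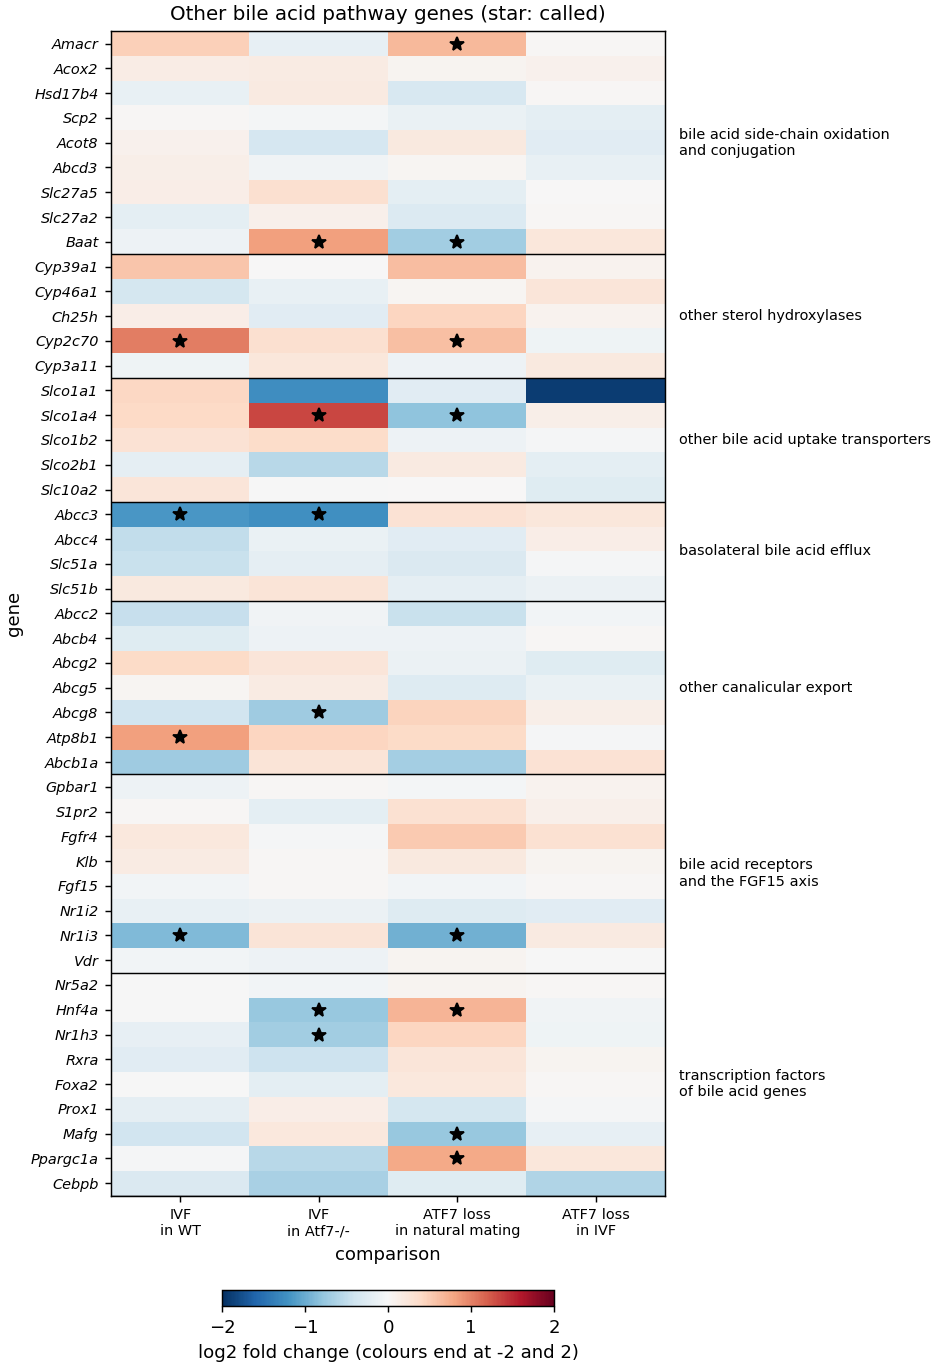
Log2 fold change of 47 other bile acid pathway genes in 4 comparisons, on a colour scale from blue (lower) through white (0) to red (higher) that ends at 2 in either direction, with a star for a call. Stars are few, at most 8 of 47 genes in a comparison, and lie on both colours.

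Markers of other liver cells were read beside these values. Of all 34760 probe sets, 4.52% were called with IVF in WT, 6.78% with IVF in Atf7-/- and 7.5% with ATF7 loss in natural mating. In the same order, 8669, 9032 and 9246 probe sets had an unadjusted p under 0.05, so such values were common in each contrast. Of 6 Kupffer cell markers, 1 rose (Vsig4) and 3 fell (Clec4f, Cd5l and Marco) with ATF7 loss in natural mating, and Cd5l fell with IVF in WT. Leaving out single arrays ended the call of Marco in 5 of 6 fits, of Vsig4 in 2 of 6 and of Cd5l with IVF in WT in 3 of 6. Their summed log2 level was 12.16 to 12.71 on the arrays of WT natural mating, 12.17 to 12.28 on those of WT IVF, and 11.99 to 12.38 on the 6 Atf7-/- arrays. Of 5 cholangiocyte markers, Krt19 rose with ATF7 loss in natural mating by 0.60 (SE 0.09, adjusted p = 0.00123), which dropped under the fold minimum in 2 of 6 fits without an array, and the summed log2 level was 8.32 to 8.42 on WT natural mating arrays and 8.52 to 8.86 on the other 9. These markers were dim, with means over the 12 arrays from 3.58 (Cftr) to 7.11 (Sox9). Those of Cftr and Epcam (5.78) lay below the median of every array. Of 6 stellate cell markers 1 rose with IVF in WT (Reln) and 1 with ATF7 loss in natural mating (Pdgfrb), with 6 and 3 at an unadjusted p under 0.05 and list medians of 0.50 and 0.38. Their summed log2 level was 11.88 to 12.26 on WT natural mating arrays and higher, at 12.36 to 12.795, on the other 9. Of 5 endothelial markers 1 rose in both of these contrasts (Clec4g, by 0.75 and 0.9998), and its other probe set was not called (-0.10 and -0.09). The summed log2 level of the endothelial list was 11.49 to 11.73 on WT natural mating arrays and higher, at 11.89 to 12.41, on the other 9. Clec4g, the brightest of the 5, weighs most in this sum. The list medians were 0.25 with IVF in WT and 0.05 with ATF7 loss in natural mating. The 2 blood markers measured were not called in any contrast, with 0 at an unadjusted p under 0.05. Of 8 pericentral hepatocyte genes 2 rose with IVF in WT (Lgr5 and Rhbg) and 1 fell with IVF in Atf7-/- (Glul), and of 3 periportal genes measured 1 fell with IVF in WT (Pck1). The 2 probe sets of Glul differed by -1.40 (adjusted p = 0.0396) and -0.36 (adjusted p = 0.492), the latter not called. Leaving out single arrays ended the call of Glul and that of Clec4g with IVF in WT in 5 of 6 fits, those of Lgr5 and Pck1 in 4 of 6 and that of Reln in 1 of 6. The WT natural mating arrays, the reference of IVF in WT and of ATF7 loss in natural mating, were spread in several pericentral genes. Glul (brighter probe set) ran from 9.70 to 11.71 there, Oat from 9.53 to 11.60, Slc1a2 from 7.88 to 9.86 and Cyp1a2 from 10.17 to 11.78. Cyp2e1 (13.21 to 13.46) and Axin2 (6.17 to 6.37) varied less. The part of these cells in the member results was not tested.

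The genes whose values ran most closely with each changed member were named by the root mean square difference of their log2 deviations over the 12 arrays, among 17149 genes. For Hsd3b7 these were Pnkd (0.222), Mrnip (0.242) and Btd (0.254), against a median of 0.669 over all genes. For Akr1d1 they were Rps20 (0.107), Rps7 (0.137) and Agxt2 (0.148), with a median of 0.460. For Cyp7a1 they were Upp2 (0.768), Igfbp1 (0.790) and Etnppl (0.813), with a median of 1.14, so the nearest genes were also farther away. For Cyp8b1 Eps8l2 (0.250), Tram2 (0.250) and Odf3b (0.256) were nearest, with a median of 0.598, and for Nr1h4 Riok2 (0.0841), Ndufaf6 (0.129) and Pik3c2g (0.134), with a median of 0.342. These distances use the same arrays as the changes and are a description.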

How the data were processed

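Liver RNA of 12 male mice, 3 in each of 4 groups, was measured on Affymetrix Mouse Gene 1.0 ST arrays. Per the labels and methods, the authors ran RMA from the affy package on the scans. The log2 values they deposited, 1 per probe set and array, were used as they stand. Its version, filters and genome build were not given in the sources used here. RMA lowers the spread of dim probe sets and can understate large differences. Of 34760 probe sets, 21640 carry 1 gene symbol, 1321 several and 11799 none, and genes were named from those with 1 symbol.

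A linear model with 4 group means was fitted in R 4.3.3 by limma 3.58.1, using empirical Bayes variances, 8 residual degrees of freedom and Benjamini-Hochberg adjustment over all probe sets. Calls needed an adjusted p within 0.05 and a log2 difference of 0.6 or more in either direction, as in the study's methods. All intervals are 95% intervals of that fit. The limma step was first tested on simulated data. The 10 genes, the pathway, clock, male-biased and cell type lists and the motifs were chosen with earlier results of these data known. All 10 genes are described, with up to 4 called genes of each other pathway list and contrast, Atf7 as a label check, Arntl and Dbp for the clock and Alb for hepatocytes, and the 3 nearest genes of each called member. Other clock, cell type, liver zone and male-biased genes were named after their values were seen. Promoter sequences of 250 bases before the start came from RefSeq (GRCm38.p6). The alternatives left out each array in turn, fitted the compared groups alone, blocked on replicate number, weighted arrays, or used robust variances with an intensity trend. Others centred arrays on their medians, repeated quantile normalization, dropped probe sets with a mean log2 under 5, kept those with 1 symbol or the brightest per symbol, and set the fold minimum to none or to 1 on the log2 scale. Figures were drawn with matplotlib 3.10.9 in Python 3.11.15. Precision is limited by the number of arrays. Scan dates were not used here.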

Additional observations from a re-analysis of the deposited data

Results flagged for a closer look

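The effect of IVF differed between WT and Atf7-/- mice by limma's interaction term for 3 of the 10 genes. The same term was called for 6.18% of all probe sets. The IVF effect in Atf7-/- minus that in WT was 3.43 (SE 0.81, adjusted p = 0.0292) for Cyp7a1, -1.80 (SE 0.23, adjusted p = 0.00161) for Hsd3b7 and 0.97 (SE 0.15, adjusted p = 0.00477) for Akr1d1. For Hsd3b7 the effects had opposite directions and were each called, for Akr1d1 the effect in Atf7-/- alone was called, and for Cyp7a1 that in WT alone. The interactions of Hsd3b7 and Akr1d1 were called without each of the 12 arrays. That of Cyp7a1 lost its call without any 1 of 7 of them (adjusted p 0.0551 to 0.0726).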

How the results depend on the processing

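Of 50 member results, 10 genes in 5 contrasts, 12 were called and 40 had no change of call under any alternative at the same thresholds, and no direction reversed among called values. Leaving out 1 array gave 1 to 3 called members for IVF in WT (2 with all arrays), 1 to 4 for IVF in Atf7-/- (3), 2 to 4 for ATF7 loss in natural mating (4), 0 for ATF7 loss in IVF and 2 to 4 for the interaction (3). Over all probe sets these ranges were 998 to 1795 (1571 with all arrays), 1727 to 2621 (2356), 2133 to 2759 (2606), 2 to 6 (2) and 1443 to 2482 (2148). Without WT IVF replicate 3 the count for IVF in WT was 998, and ATF7 loss in IVF gave 6 probe sets without Atf7-/- IVF replicate 2, 4 without Atf7-/- IVF replicate 1 and 5 without WT IVF replicate 2. A fit of only the groups compared called 1 member for IVF in WT and 0 probe sets for ATF7 loss in IVF. A log2 fold change of at least 1 left 1 member each for IVF in Atf7-/- and ATF7 loss in natural mating, and 436, 706, 910 and 986 probe sets for, in order, IVF in WT and in Atf7-/-, ATF7 loss in natural mating and the interaction. No fold minimum gave 2997, 4498 and 4767 in the first 3 of these. The brightest probe set per symbol gave 963, 1332, 1305 and 1410 of fewer features, only probe sets with 1 symbol gave 1528 for IVF in Atf7-/- and 1494 for ATF7 loss, and the filter on dim probe sets left 1 for ATF7 loss in IVF. Median centring moved the split for IVF in WT from 63% to 75.5% higher and for the interaction from 44% to 30.4%. Nr1h4 gained a call for IVF in Atf7-/- without Atf7-/- IVF replicate 1 (0.66, adjusted p = 0.0294), and for the interaction without WT IVF replicate 2 (0.89, adjusted p = 0.0277), with 1-symbol probe sets (adjusted p = 0.0494) and with the brightest (adjusted p = 0.0470). The cause of these moves was not tested, beyond fewer features or samples where an alternative has them.

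The replicate numbers were not shown to pair the mice, and correlations this weak cannot exclude that they do. Of 18 same-numbered pairs between groups, 3 had deviations correlated over 0.1 (-0.124 to 0.239). Of 36 pairs with different numbers, 3 did (-0.200 to 0.189). Among the samples, 5 of 12 correlated best with their own number. With the replicate block limma called 1, 3, 4, 0 and 2 members and 1494, 2345, 2587, 3 and 2020 probe sets in the 5 contrasts, and Cyp7a1 lost its calls for IVF in WT (adjusted p = 0.0605) and the interaction (adjusted p = 0.0520). Among other genes named in the report, the block ended the calls of Slco1a4 with ATF7 loss, of the Amacr interaction, of Glul with IVF in Atf7-/- and of Lgr5 with IVF in WT.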
